A study of Homo sapiens with 6 samples.

Results

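The MAF transcription factors were followed in H2087-LCC cells, a latency competent cancer (LCC) population that was selected in vivo from a human lung adenocarcinoma line. The members are MAF, MAFF, MAFG and MAFK, 4 of the 21293 genes in the deposited table, found by gene symbol. MAF was chosen because its level rose late, so its levels are described without a test. RNA-seq libraries came in 3 groups of 2: cells kept for 3 days with SB505124 (SB), which inhibits the TGFβ receptor and so blocks endogenous signaling, cells given TGFβ for 3 days, and cells given TGFβ for 7 days. All groups were the same cell population, and SB libraries exist for 3 days alone, so in the 7-day cells the effect of TGFβ and that of time in culture cannot be told apart. The study describes the libraries within each group as technical replicates. Every SD and p-value below therefore measures technical spread between repeats, treats these repeats as replicates, and does not cover the spread between separate cultures. H2087-LCC is 1 selected population of 1 line.

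MAF proteins are basic leucine zipper transcription factors that bind the MAF recognition element as dimers. Large members such as MAF, MAFA and NRL carry a transactivation domain and direct differentiation in lens, macrophages, T cells, pancreas and retina, and MAF is an oncogene in multiple myeloma. The small members, MAFF, MAFG and MAFK, lack that domain and act with CNC partners such as NRF2 (NFE2L2), or with BACH repressors, on antioxidant response elements.

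The unit of every level given here is the normalized count, the read count of a gene after the authors scaled each library by its size and rounded to a whole number. The counts summed to between 34306283 and 36340734 per library, from an estimated 32000000 to 40000000 assigned reads. TGFβ responses were present in both TGFβ groups: SMAD7 and SKIL, direct TGFβ targets, were higher than in SB and CDH1 was lower. The 6 epithelial markers (EPCAM, KRT7, KRT8, KRT18, KRT19 and CDH1) summed to 101970 to 112407 normalized counts in SB, 98169 to 110423 at 3 days and 88277 to 101192 at 7 days. KRT8 and KRT18 carried most of that sum, which therefore hides moves of single markers. Between SB and day 7 of TGFβ, mean EPCAM dropped from 9643 to 3132.5, KRT18 from 49029.5 to 33235.5 and CDH1 from 503 to 9.5. KRT7 went the other way, from 6021.5 to 12604.5. By the limma test described below, 3 of the 6 were lower and 1 higher than under SB in each TGFβ group. Of all genes tested, 29.0% passed in either direction at 3 days and 54.5% at 7 days. KRT8 and KRT19 did not pass. Endothelial CDH5 and VWF were at 20 or fewer, with PECAM1 between 36 and 67, and fibroblast DCN and LUM were at 1 or 0, with PDGFRA between 8 and 16.

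The promoters of MAF and of MAFF are shown because both carry a cyclic AMP response element close to the start site, although MAF was above its SB level at 7 days and MAFF below it. They come from RefSeq (GRCh38.p14), which gave 4 promoters for 3 of the 4 members, each of 300 bases with 250 before the start site, and each matched GRCh37 exactly at 1 place. The MAF promoter is at chr16:79634585-79634884 on the minus strand of GRCh37, and that of the more upstream of the 2 MAFF start sites is at chr22:38597751-38598050 on the plus strand. Capitals mark matches to the motifs searched.
MAF: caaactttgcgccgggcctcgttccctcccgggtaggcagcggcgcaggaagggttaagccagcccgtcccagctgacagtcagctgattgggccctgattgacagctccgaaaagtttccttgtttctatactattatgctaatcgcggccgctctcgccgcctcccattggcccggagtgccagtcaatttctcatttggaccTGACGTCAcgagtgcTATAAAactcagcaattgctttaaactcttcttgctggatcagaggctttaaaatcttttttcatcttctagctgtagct
MAFF: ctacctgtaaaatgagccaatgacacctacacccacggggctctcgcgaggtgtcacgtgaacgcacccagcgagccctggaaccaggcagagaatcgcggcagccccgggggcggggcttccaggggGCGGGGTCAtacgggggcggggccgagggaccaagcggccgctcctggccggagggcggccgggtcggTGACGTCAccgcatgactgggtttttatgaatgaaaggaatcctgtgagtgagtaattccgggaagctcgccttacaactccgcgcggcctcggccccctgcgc
The motifs were searched on both strands. The cyclic AMP response element TGACGTCA lies 45 bases before the start site of MAF and 54 bases before that of MAFF, and 1.85% of all 35116 promoters of this length hold it. In MAF, a TATAAA box (11.5% of promoters) follows at 30 bases before the start. In MAFF, an antioxidant response element core, TGACNNNGC (13.3% of promoters), lies 122 bases before the start on the reverse strand. The AP-1 site TGANTCA (7.71% of promoters) did not match in these windows, nor did TGCTGAC (4.19%), with which the MAF recognition element begins. None of the motifs matched in the windows of MAFG and of the other MAFF start site. A match describes the letters and does not show that a factor binds there.

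MAF, the large member picked for its late rise, was low under SB and gained most of its level after day 3. It lies on chromosome 16 of GRCh37 from 79619740 to 79634634, on the minus strand. The normalized count was 11 in both SB libraries, 37 and 25 after 3 days of TGFβ, and 274 and 298 after 7 days. The groups did not overlap: both 3-day libraries were above both SB libraries, and both 7-day libraries were far above the rest. The means were 11 ± 0 (SD, n = 2 technical replicates), 31 ± 8.49 and 286 ± 17.0, or 2.82-fold over SB at 3 days, 26.0-fold at 7 days and 9.23-fold from 3 days to 7 days. Taking single libraries, the ratio from 3 days to 7 days lay between 7.41 and 11.9. Few reads stand behind the SB value, an estimated 10 and 11, and exact 95% Poisson intervals ran from 5.27 to 20.2 and from 5.43 to 19.4 normalized counts, for counting error only. Replicates of MAF lay at most 1.56 counting SDs apart. MAF is abundant in macrophages, so 5 immune markers were read beside it. They summed to 40 to 41 normalized counts in SB, 636 to 683 at 3 days and 1036 to 1125 at 7 days, and 1 gene, CSF1R, made up nearly all of the rise. The defining markers PTPRC, CD14 and CD163 were at 8 or fewer in every library and CD3E at 1 or 0. In bulk RNA, a gene used by more cells and a gene used more strongly per cell cannot be told apart.

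**Figure D1:**
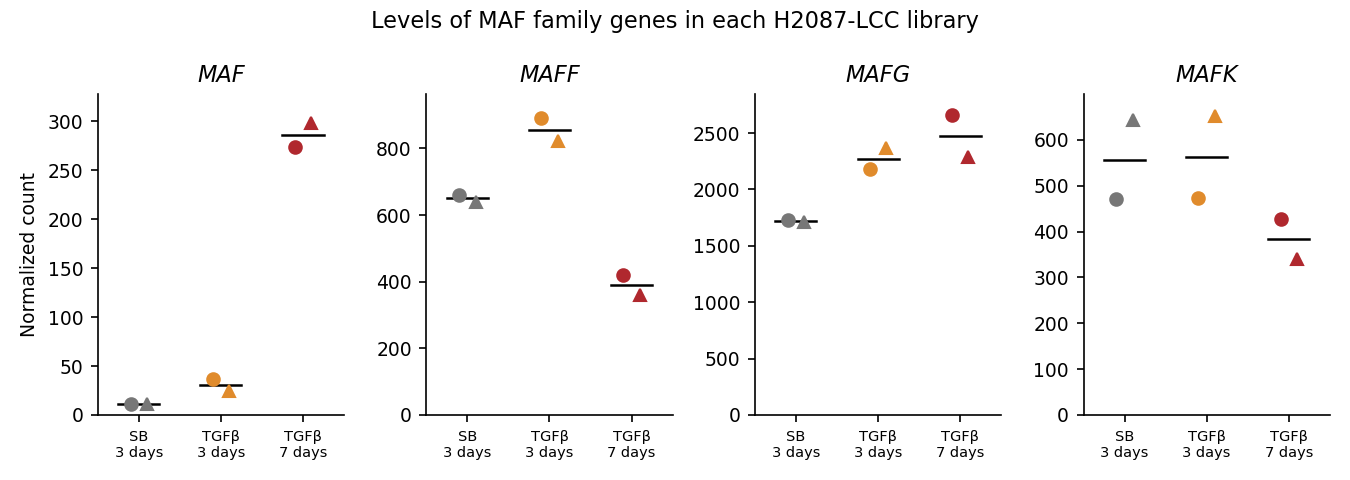
Normalized counts (y axis, linear from 0, scale differs by gene) of MAF, MAFF, MAFG and MAFK in the 6 libraries. Circles are replicate 1, triangles replicate 2 and bars the mean of 2. MAF climbs at both steps, MAFF is highest at 3 days and lowest at 7 days, and the MAFK replicates lie far apart.

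Other genes were tested with limma on log2(normalized count + 1), over the 14395 genes whose mean reached 10, with Benjamini-Hochberg adjustment at 0.05. MAFA, a large member of pancreatic beta cells, was at 3 normalized counts or fewer in each library and was not tested, and NRL, the rod photoreceptor factor, was at 26 or fewer, with a log2 fold change against SB of -0.97 (adjusted p = 0.143) after 3 days and -1.05 (adjusted p = 0.0758) after 7 days.

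MAFF, a stress-inducible small member, rose at 3 days and then fell below its SB level by 7 days. It lies on chromosome 22 of GRCh37 from 38596774 to 38612514. The normalized count was 661 and 639 in SB, 891 and 822 after 3 days of TGFβ and 421 and 359 after 7 days. Each group was apart from the others, with the 3-day libraries highest and the 7-day libraries lowest. From 3 days to 7 days MAFF fell by 1.14 on the log2 scale (standard error 0.12, adjusted p = 7.68e-05 from limma), to 0.455 of the 3-day mean. In this comparison 2 of the 3 small members passed the threshold, both lower, beside 33.2% of all genes tested (17.0% higher and 16.2% lower). Relative to SB, MAFF fell by 0.74 at 7 days (adjusted p = 0.000356 from limma). The earlier rise of 0.40 relative to SB (adjusted p = 0.0317) was the less stable call. It was lost without any one of the 4 libraries of that comparison, with adjusted p-values of 0.0594 and 0.0907 without the first or the second SB library and 0.201 and 0.0681 without the first or the second 3-day library, and also with equal library totals (0.057), without the filter on low values (0.0685) and without the trend on mean expression (0.0654).

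MAFG, the small member with the highest level, rose at 3 days, was above SB at 7 days and did not pass the test between these times. It lies on chromosome 17 of GRCh37 from 79876146 to 79885611. The normalized count was 1731 and 1709 in SB, 2180 and 2366 after 3 days of TGFβ and 2663 and 2284 after 7 days. All TGFβ libraries were above both SB libraries, while the 3-day and 7-day libraries overlapped. Against SB, MAFG rose by 0.40 on the log2 scale after 3 days (adjusted p = 0.0111 from limma, standard error 0.10) and by 0.52 after 7 days (adjusted p = 0.00101). In the 3-day comparison 2 of the 3 small members passed, both higher, beside 29.0% of all genes tested (14.9% higher and 14.0% lower). In the 7-day comparison all 3 passed, 1 higher and 2 lower, beside 54.5% of all genes tested (27.7% higher and 26.9% lower). Between 7 days and 3 days, the difference of MAFG was 0.12 (standard error 0.10, adjusted p = 0.392). Without the second 3-day library, the call at 3 days was lost (adjusted p = 0.0827), as it was without the trend on mean expression (0.0605). The 7-day libraries lay 5.56 counting SDs apart.

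MAFK, the third small member, did not pass the test at 3 days and was lower at 7 days, with replicates that lay further apart than counting allows. It lies on chromosome 7 of GRCh37 from 1570338 to 1582679. The normalized count was 470 and 644 in SB, 474 and 651 after 3 days of TGFβ and 428 and 340 after 7 days. The SB and 3-day libraries overlapped fully, and both 7-day libraries were below the lowest of them. Its log2 fold change against SB was 0.01 after 3 days (adjusted p = 0.964 from limma) and -0.53 after 7 days (standard error 0.19, adjusted p = 0.0342). From 3 days to 7 days it was -0.54 (adjusted p = 0.0471). The replicates differed by 5.13, 5.43 and 3.28 times the SD of read counting in SB, at 3 days and at 7 days. For 7 days against SB the value was -0.30 without the second SB library (adjusted p = 0.257) and -0.36 without the second 7-day library (adjusted p = 0.235), so the call was lost. The fall from 3 days to 7 days lost its call without the second 3-day library (-0.31, adjusted p = 0.309), the first 7-day library (-0.71, adjusted p = 0.0533) or the second 7-day library (-0.38, adjusted p = 0.289). At its end MAFK shares 809 bases of exon, 18.1% of its exon length, with TMEM184A on the opposite strand, and the library kit does not mark strand. TMEM184A was at 472 and 567 normalized counts in SB, 241 and 329 at 3 days and 297 and 259 at 7 days, and its part in the MAFK values was not tested. MAFF shares 5.8% of its exon length with PLA2G6 on the opposite strand. MAFG shares 2.0% with SIRT7 on its own strand. It also shares 4.3% with a long noncoding RNA gene on the opposite strand, which is absent from the deposited values.

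**Figure D2:**
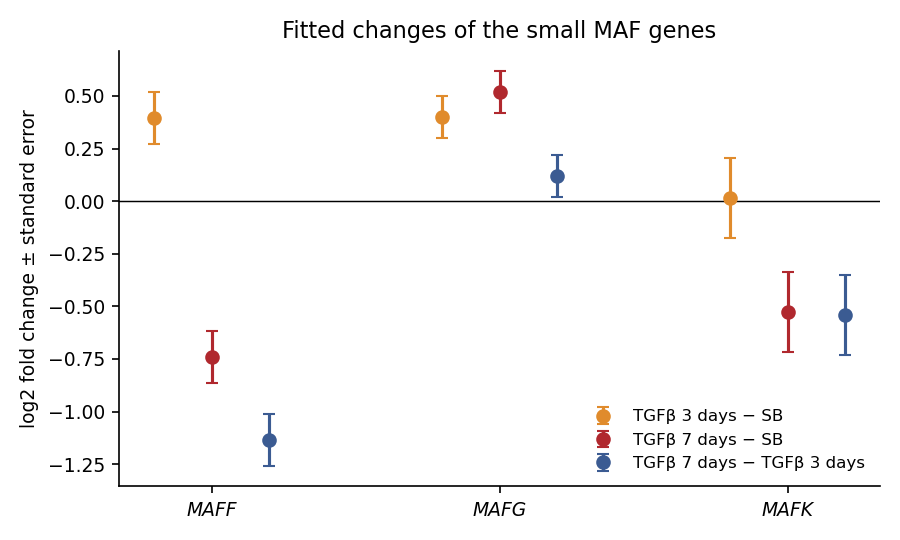
Log2 fold changes (y axis, points, with bars of 1 standard error) of MAFF, MAFG and MAFK from the limma fit of the 6 libraries, for TGFβ 3 days minus SB, TGFβ 7 days minus SB and TGFβ 7 days minus 3 days. MAFF crosses from 0.40 to -0.74 relative to SB, MAFG stays between 0.12 and 0.52, and MAFK lies at 0.01 at 3 days and near -0.5 in the other contrasts.

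Levels were compared between members per kilobase of exon, with the exons of all GENCODE transcripts of a gene merged (from 4.47 kb for MAFK to 7.00 kb for MAF). In SB the order of mean normalized counts per kb was MAFG (328), MAFK (125), MAFF (116) and MAF (1.57), and the ranges of MAFK and MAFF overlapped. At 3 days it was MAFG (434), MAFF (153), MAFK (126) and MAF (4.43), where the highest MAFK library, at 145.6, came within 1 unit of the lowest MAFF library, at 146.5. At 7 days it was MAFG (472), MAFK (85.9), MAFF (69.5) and MAF (40.9). The 7-day MAF libraries, at 39.2 and 42.6, were below both MAFF libraries. The order of MAFK and MAFF depends on the length used. Per kb of the longest single transcript (3.28 kb for MAFF and 3.38 kb for MAFK), MAFF was above MAFK in each group, with means of 198 and 165 in SB, 261 and 166 at 3 days and 119 and 114 at 7 days, and the 7-day libraries overlapped. MAFG was highest and MAF lowest in each group with either length. Among the 3 small members, the MAFG share of the summed level per kb was 59.7% and 55.8% in SB, 61.1% and 60.7% at 3 days and 74.8% and 75.7% at 7 days. The share of MAF in the summed level of the 4 members per kb went from 0.283% and 0.268% in SB to 0.771% and 0.478% at 3 days and 5.45% and 6.88% at 7 days. With the longest single transcript, the MAFG share was 46.7% to 50.1% in SB and 67.4% to 68.3% at 7 days, and the MAF share 0.238% to 0.252% and 5.21% to 6.59%. These shares come from within each library, so the scaling between libraries does not enter them.

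CNC and BACH proteins are the usual dimer partners of the small members. Of 6 CNC and BACH genes listed, 5 were tested. At 3 days 1 was higher than in SB and 2 were lower, at 7 days none of the 5 passed the limma threshold relative to SB, although NFE2L1 had an unadjusted p of 0.0344 in that fit, and from 3 days to 7 days 2 were higher. The share of all genes tested that passed was 29.0%, 54.5% and 33.2% in these comparisons. Without the second SB library, none of the 5 was called at 3 days and 2 were called higher at 7 days, and without the second 3-day library none was lower at 3 days. Their median log2 fold changes of 0.03, 0.20 and 0.15 in these comparisons stand beside -0.02, -0.00 and 0.02 over all genes tested. NFE2L2, which encodes NRF2, was between 4262 and 4786 normalized counts in every library, and its log2 fold change against SB was 0.03 after 3 days and 0.07 after 7 days. NFE2L3, a membrane-bound CNC factor, was at 1275 and 1550 in SB, 1108 and 984 at 3 days and 1529 and 1654 at 7 days, and rose by 0.61 from 3 days to 7 days (adjusted p = 0.00279). BACH1, the repressor that competes for small MAF proteins, was 0.35 above SB at 3 days (adjusted p = 0.0176), a call kept in 13 of 17 alternatives and lost without the second SB library (0.0624) or the first 3-day library (0.179). BACH2 was low, with a mean of 29 normalized counts over the 6 libraries. Its log2 fold change against SB was -0.88 after 3 days (adjusted p = 0.0484 from limma), a call kept in 7 of 16 alternatives. From 3 days to 7 days BACH2 rose by 1.23 (adjusted p = 0.00993 from limma), a call kept in 13 of 16. KEAP1, CUL3 and SQSTM1, which control NRF2 turnover, did not pass the threshold in any of the 3 comparisons.

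MAF can also pair with AP-1 proteins. Of the 7 AP-1 genes, 2 were higher and 1 lower than in SB at 3 days, 2 were higher and 2 lower at 7 days, and 2 were higher and 1 lower from 3 days to 7 days. These are 3, 4 and 3 of 7, beside 29.0%, 54.5% and 33.2% of all genes tested. JUNB was at 222 and 284 normalized counts in SB, 862 and 1208 at 3 days and 1963 and 1234 at 7 days. It rose against SB by 2.02 on the log2 scale after 3 days (adjusted p = 2.51e-05) and by 2.63 after 7 days (adjusted p = 1.24e-06). JUN fell by 0.65 (adjusted p = 0.000635) after 3 days. FOSL1 stood at -0.08 against SB after 3 days (adjusted p = 0.757) and fell by 1.51 from there to 7 days (adjusted p = 7.70e-05). FOS was at 991 in one 7-day library and 140 in the other, so no direction is given for it there.

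Genes that MAF is known to drive in other tissues moved in both directions. Of 11 listed, 6 were tested. At 3 days 3 were higher than in SB and 2 lower, at 7 days 2 were higher and 1 lower, and from 3 days to 7 days 1 was higher and 2 lower. All genes tested passed at shares of 29.0%, 54.5% and 33.2% in these comparisons, and at 7 days 3 of 6 is near that share. PTHLH, the parathyroid hormone-like factor tied to MAF in bone metastasis of breast cancer, was at 164 and 249 normalized counts in SB, 342 and 315 at 3 days and 543 and 619 at 7 days. By then it was 1.52 above SB on the log2 scale (standard error 0.19, adjusted p = 3.34e-05). CCR1, a chemokine receptor that is a MAF target in myeloma, was at 1 and 9 in SB, 29 and 18 at 3 days and 80 and 63 at 7 days. After 7 days it was 4.01 above SB on the log2 scale (standard error 0.60, adjusted p = 0.000158), a value of 2.85 without the first SB library and 5.17 without the second. Both 7-day libraries were above the SB and 3-day libraries for both genes. For DEPTOR, on the same list, both were below them. How many of all genes separate in this way was not counted. The myeloma targets did not share a direction: DEPTOR, an inhibitor of mTOR, fell by 1.31 at 7 days relative to SB (adjusted p = 8.85e-05), ITGB7 stood at -0.28 against SB (adjusted p = 0.291), and CCND2 was listed at 0 in every library. MMP13, a collagenase that MAF controls in cartilage, rose by 1.02 at 3 days (adjusted p = 0.000162) and fell by 1.12 from 3 days to 7 days (adjusted p = 0.000176). Whether MAF acts on any of these genes in H2087-LCC cells was not tested. Over the alternatives the numbers higher and lower at 3 days ranged from 1 to 3 and from 0 to 3, and none of the 6 was called lower there without the second SB library or without either 3-day library. The number higher from 3 days to 7 days ranged from 0 to 2. It was 0 without the second 7-day library and also in an alternative that kept every library.

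Antioxidant response element genes, on which small MAF dimers act, split within the list. Of the 20 genes, 10 were higher and 2 lower than in SB at 3 days, 7 were higher and 5 lower at 7 days, and from 3 days to 7 days 1 was higher and 8 were lower. Beside these 12, 12 and 9 of 20, the share of all genes tested that passed was 29.0%, 54.5% and 33.2%, so the 7-day count is near that share. The median log2 fold changes were 0.28, -0.01 and -0.31. Over the alternatives, the number higher at 3 days ranged from 5 to 12 and the number lower from 3 days to 7 days from 3 (without the second 7-day library) to 10, with 5 without the second 3-day library. HMOX1, heme oxygenase 1, rose by 1.76 at 3 days (adjusted p = 4.79e-06) and was 1.12 above SB at 7 days. NQO1, a quinone reductase, was 0.47 above SB at 3 days and 0.55 at 7 days (adjusted p = 0.00192 and 0.000252). The subunits of glutamate-cysteine ligase parted: after 7 days GCLM exceeded SB by 0.73 on the log2 scale (adjusted p = 0.000423), while the GCLC mean was at 0.352 of its SB level (adjusted p = 1.78e-07).

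**Figure D3:**
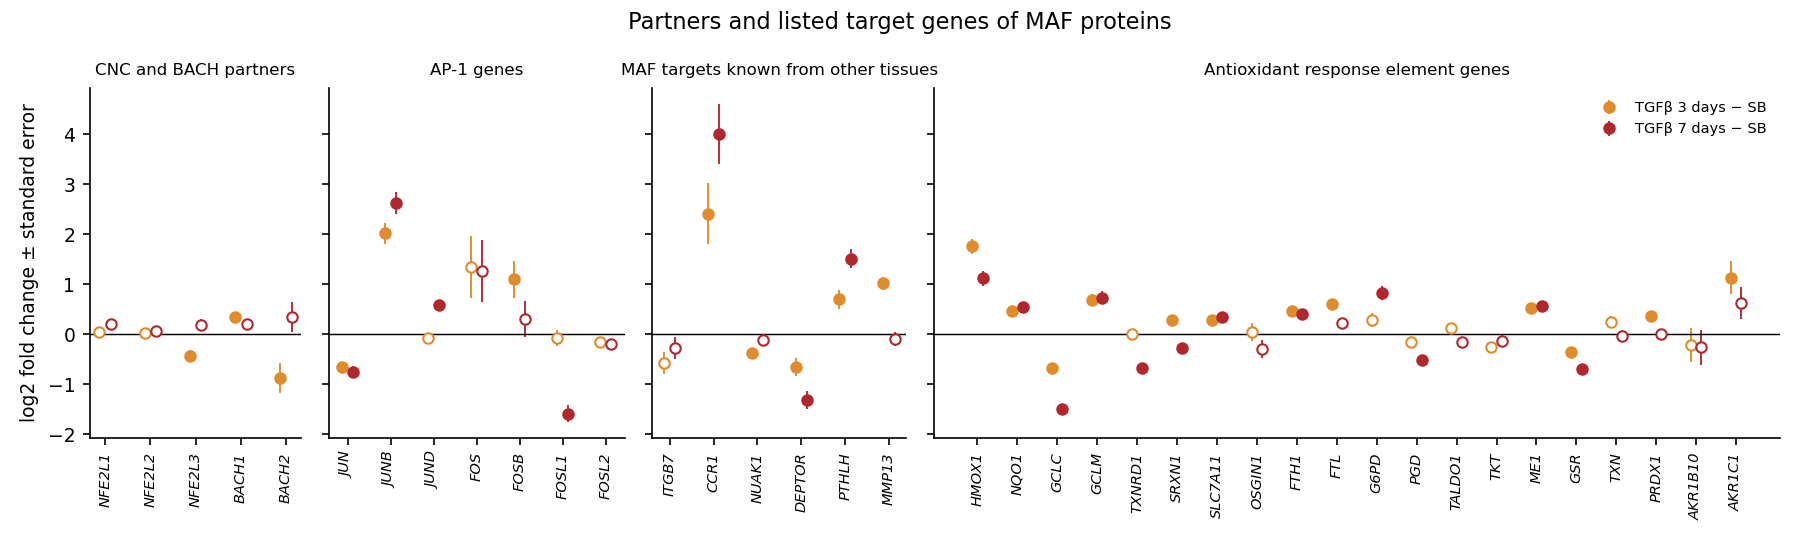
Log2 fold changes relative to SB (y axis, with bars of 1 standard error) of the tested partner and target genes, at 3 days and 7 days of TGFβ. Filled points passed the limma threshold of 0.05 and open points did not. NFE2L2 lies near 0 at both times, JUNB, CCR1, PTHLH and HMOX1 are above 0, and FOSL1, DEPTOR and GCLC are lowest at 7 days.

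Genes with a pattern like that of each member were found among the 11388 other genes with a mean of at least 100, by the smallest root mean square difference of the 6 log2 values taken relative to SB. For MAF the nearest was CST1, which encodes cystatin SN, at 0.25. It was followed by PAPPA2, a protease of IGF-binding proteins, at 0.46, UNC13A (0.51), PDGFRB (0.52), SERPINA5 (0.52), TBX18, a T-box transcription factor (0.53), SHC4 (0.54) and VCAN, the proteoglycan versican (0.56). The mean of CST1 went from 34 normalized counts under SB to 105.5 and then 751.5, and that of PDGFRB from 19 to 70.5 and 312. MAFF lay nearest to GFOD1 (0.07), AOX1 (0.10) and UGCG (0.11), which likewise peaked at 3 days. MAFG lay nearest to PKM (0.05), PPP1R18 (0.05) and GBF1 (0.06), and MAFK to LOC652276 (0.11). The likeness is a description over 6 libraries in 3 groups, and a smaller change makes a small difference easier to reach.

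**Figure D4:**
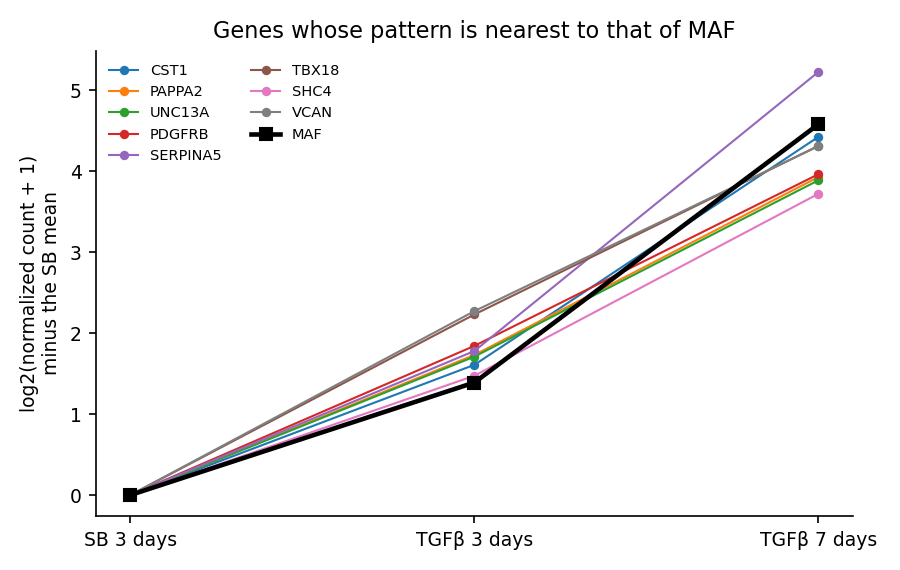
Group means of log2(normalized count + 1) minus the SB mean (y axis) for MAF and the 8 genes nearest to MAF, in SB, TGFβ 3 days and TGFβ 7 days (x axis). Each line is 1 gene, and lines join group means as a guide only. MAF goes from 1.39 at 3 days to 4.58 at 7 days, and CST1 from 1.61 to 4.42.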

How the data were processed

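RNA-seq of 6 libraries of H2087-LCC cells was used (TruSeq RNA Sample Prep Kit v2). According to the submitters' processing notes and the methods of the study, the authors checked reads with FastQC 0.11.5, mapped them to hg19 with STAR, counted uniquely mapped reads per gene with HTSeq 0.6.1p1 at default settings and normalized by library size (DESeq2 3.4). The annotation release is not given in the sources used here. The deposited values are normalized counts rounded to whole numbers and were recorded as a score. Reads per gene can only be estimated from them, through an estimated depth, so the negative binomial test of the study, which takes counts, was not used. Depth was estimated from which whole numbers occur too rarely or too often at low levels.

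The log2(value + 1) of each gene whose mean reached 10 was used, and the 3 groups were fitted together in limma 3.58.1 (R 4.3.3; empirical Bayes with trend, 3 residual degrees of freedom), with Benjamini-Hochberg adjustment at 0.05 over 14395 genes. An exact permutation test of 2 against 2 libraries cannot give a two-sided p below 0.333 and was not used. Samples were grouped by title. The members and lists were chosen with earlier results of these data known. The genes named are the members, the members of the lists and, by the distance given in the text, 8 genes like MAF and 3 like each small member, of which some, like some listed genes, are not reported here. TMEM184A, PLA2G6, SIRT7 and the long noncoding RNA gene were added for sharing exon sequence with a member, after the values were seen. The study describes the libraries of a group as technical replicates. Positions and exon lengths are from GENCODE on GRCh37, whose chromosomes are those of hg19.

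The alternatives were pseudocounts of 0.5 and 5, no filter and a mean of at least 50, 3 other scalings, no trend, 4 libraries only, the replicate number as a block and each library left out, and, chosen after the data were seen, a loess correction (span 0.5) for GC content and transcript length, which covered 90.5% of the genes tested, and the longest transcript in place of merged exons for levels per kb. A simulation of 7 days against 3 days (14384 genes tested) returned 183 of 200 genes made to differ at mixed fold sizes and 8 others. It gave every gene the same relative spread beyond counting, whereas the spread of real replicates differed by gene. It therefore checks the code and does not measure the error rate in these libraries. Plots used Python 3.11.15 (matplotlib 3.10.9).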

Additional observations from a re-analysis of the deposited data

Results flagged for a closer look

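Many genes differed between 3 days and 7 days by limma (4775 in all, among them others on the lists). Singled out are the small MAF genes that did, and the 1 other listed gene whose calls against SB had opposite signs at the 2 times. MAFF went from above its SB level (3 days) to below it (7 days), a difference of -1.14 on the log2 scale (adjusted p = 7.68e-05). MAFK had a difference of -0.54 (adjusted p = 0.0471). SRXN1, the sulfiredoxin gene on the antioxidant list, stood at 0.28 against SB after 3 days and at -0.27 after 7 days, a difference of -0.54 (adjusted p = 0.00138). The call of the difference held in 17 of 17 alternatives for SRXN1, while its call against SB held in 7 of them at 3 days and in 11 at 7 days.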

How the results depend on the processing

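MAFF at 7 days relative to SB and to 3 days, and MAFG at 7 days relative to SB kept their direction and their call in each of the 17 alternatives. The log2 fold change of MAFF at 3 days was 0.40 without the filter on low values and 0.40 without the trend, and 0.34 with equal library totals, each without the call, and from 0.34 to 0.45 with 1 library left out. That of MAFG at 3 days was 0.40 without the trend, past the threshold no longer, and from 0.34 to 0.46 with 1 library left out. Equal library totals gave MAFK a 3-day value of -0.042, and leaving out 1 library gave -0.21 to 0.24, below 0 without the first SB library or the second 3-day library. Its 7-day value relative to SB was -0.53 without the filter and -0.53 without the trend, without the call, and from -0.75 to -0.30 with 1 library left out. Its value from 3 days to 7 days was -0.54 without the filter, -0.54 without the trend and -0.53 with equal library totals, without the call, and from -0.77 to -0.31 with 1 library left out.

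With a pseudocount of 5, which compresses low values, the log2 difference of MAF was 1.15 at 3 days and 4.18 at 7 days relative to SB. With 1 library left out it ranged from 1.11 to 1.66 at 3 days, from 4.52 to 4.64 at 7 days and from 2.92 to 3.46 between them. The genes called from 3 days to 7 days fell from 4775 to 3042 without the filter and 3122 without the trend. With 1 library left out they numbered from 2294 (without the second 7-day library) to 5570, and those called at 3 days, 4170 in the full set, from 2608 (without the first 3-day library) to 3894. FOS from 3 days to 7 days was 1.34 without the second 7-day library and -1.48 without the first. TXN at 7 days relative to SB was -0.03 without correction (adjusted p = 0.833 from limma). With the GC and length correction its sign turned, to 0.28 (adjusted p = 0.00551 from limma). The cause was not tested. With the replicate number as a block, MAFF at 3 days was 0.40 (adjusted p = 0.0415) and 3943 genes were called there. It changed no call of a small member. Deviations of same-numbered libraries correlated at 0.140 (SB and 3 days), -0.100 (SB and 7 days) and -0.292 (3 days and 7 days). The labels do not say whether same-numbered libraries belong together, and these correlations cannot decide it. For MAF in SB, the depth of 10 and 11 reads limits the folds.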

Other observations

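CSF1R, the receptor of macrophage colony-stimulating factor, was the 1 immune marker on the list that was not near 0. It was at 34 and 31 normalized counts in SB, 626 and 677 after 3 days of TGFβ and 1114 and 1032 after 7 days. Its mean was 20.1-fold over SB after 3 days (adjusted p = 2.05e-09 from limma) and 33.0-fold after 7 days (adjusted p = 1.78e-10). Its adjacent gene, PDGFRB, is one of the genes nearest to MAF in pattern. Both lie on the minus strand of chromosome 5 of GRCh37, with 466 bases between CSF1R (149432854 to 149492935) and PDGFRB (149493402 to 149535435). PDGFRB was at 21 and 17 normalized counts in SB, 66 and 75 at 3 days and 354 and 270 at 7 days, so its 7-day mean was 4.43-fold its 3-day mean, and that of CSF1R 1.65-fold. PDGFRB was chosen for this pattern, so its values carry no test, and the difference between the genes was not tested. The pair was singled out after the values were seen.

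Of the genes around MAF, CDYL2, a chromodomain gene on the same strand of chromosome 16, was at 223 and 292 normalized counts in SB, 456 and 493 at 3 days and 676 and 592 at 7 days, by then exceeding SB by 1.31 on the log2 scale (adjusted p = 2.37e-05). In that comparison 54.5% of all genes tested passed. From 3 days to 7 days CDYL2 changed by 0.42 and did not pass (adjusted p = 0.0558 from limma). On GRCh37 CDYL2 lies from 80631804 to 80838495 and MAF from 79619740 to 79634634. DYNLRB2, also listed as a neighbor, was at 9 or fewer in each library and was not tested. WWOX, on the other side of MAF, stood at -0.30 against SB after 7 days (adjusted p = 0.146).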
